A study of Mus musculus with 8 samples.

Results

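Serotonergic neuron genes were followed here through 5 members: Fev, Tph2, Slc6a4, Slc22a3 and Htr1a. A probe was taken as a member when its gene symbol in the deposited annotated table was one of these names, and it was then looked up by probe name on all 8 arrays. Each member had 1 probe, so 5 of the 23912 named genes on the array were members. Fev and Slc6a4 were well above background in both channels on 8 of 8 arrays, and these 2 of 5 members passed the filter on dim probes. Tph2, Slc22a3 and Htr1a lay at or near background, so the arrays measured the set only in part and gave no check of it as a cell type.

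The study compared pools of Gfp-positive cells from rostral and caudal ventral midbrain of mouse embryos at E14.5. All embryos were Pitx3(gfp/+), with 1 copy of the dopaminergic transcription factor gene Pitx3 carrying Gfp, so the sort selects cells in which that locus is active. There were 4 rostral and 4 caudal pools, each of 5 to 7 embryos, dissociated with papain and sorted by flow cytometry. The reference on each array was Gfp-negative cells of the same specimens, which carry the same allele and are a mixture of the other cells of the tissue. The labels do not say whether it was 1 pool used on all arrays or was made for each specimen. Cy3 held the sorted pool and Cy5 the reference on all 8 arrays, with no dye swap. The labels do not say that each pool came from litters of its own, so each p-value rests on how far these pools scatter, some of which may be technical.

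Serotonergic neurons make serotonin from tryptophan, load it into vesicles, release it and take it back up through a dedicated transporter. They arise in the hindbrain, the most rostral of them just behind the isthmus, the border between midbrain and hindbrain, next to the midbrain dopaminergic neurons. The 2 kinds of neuron share enzymes for cofactor synthesis and decarboxylation and the vesicular monoamine transporter, and differ in the hydroxylase that starts synthesis and in the transporter of the cell membrane.

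Among the members, Fev encodes an ETS family transcription factor that switches on the serotonergic programme. Tph2 encodes the neuronal tryptophan hydroxylase, the rate-limiting enzyme of serotonin synthesis. Slc6a4 encodes the serotonin reuptake transporter, Slc22a3 a low-affinity organic cation transporter that also carries monoamines, and Htr1a the receptor that serves as autoreceptor on serotonergic cell bodies. In the RefSeq annotation of build GRCm38.p6, the genes span chr1:74881501-74885473 (Fev), chr10:115078641-115185022 (Tph2), chr11:76998597-77032343 (Slc6a4), chr17:12419972-12507704 (Slc22a3) and chr13:105443693-105448133 (Htr1a). The position of each probe within its transcript was not used here.

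The promoters of the 2 measured members, and of Tph2 as the enzyme gene that was not measured, are shown because Fev binds GGAA cores and the Gata factors bind GATA cores. The sequences are from RefSeq (GRCm38.p6), 5′ to 3′ on the strand of the gene, with GGAA or its reverse TTCC, and GATA or its reverse TATC, in capitals. Fev is shown over the 185 bases of chr1:74885474-74885658 (minus strand), since the 65 bases nearest the start lie within the annotated span of the gene. Tph2 is shown over chr10:115185023-115185272 (minus strand) and Slc6a4 over chr11:76998347-76998596 (plus strand), 250 bases each.
Fev: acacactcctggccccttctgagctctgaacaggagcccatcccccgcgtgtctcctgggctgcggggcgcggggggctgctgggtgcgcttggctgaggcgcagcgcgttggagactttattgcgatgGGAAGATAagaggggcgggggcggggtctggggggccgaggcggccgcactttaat
Slc6a4: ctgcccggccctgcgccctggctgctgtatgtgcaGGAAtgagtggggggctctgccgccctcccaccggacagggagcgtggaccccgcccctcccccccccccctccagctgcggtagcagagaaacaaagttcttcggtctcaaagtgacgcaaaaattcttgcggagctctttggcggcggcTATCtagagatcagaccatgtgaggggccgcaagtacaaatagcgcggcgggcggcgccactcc
Tph2: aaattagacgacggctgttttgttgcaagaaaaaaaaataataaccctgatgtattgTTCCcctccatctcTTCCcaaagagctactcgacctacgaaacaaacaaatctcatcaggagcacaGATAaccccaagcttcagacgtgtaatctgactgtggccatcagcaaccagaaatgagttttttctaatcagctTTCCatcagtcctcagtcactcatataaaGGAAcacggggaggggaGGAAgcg
In the 250 bases searched before each start, Fev held 2 GGAA cores, at 121 and 59 bases before the start, and 1 GATA core at 117 bases, directly after the first GGAA with no base shared. Slc6a4 held 1 GGAA core at 215 bases and 1 GATA core on the minus strand at 64 bases. Tph2 held 5 GGAA cores and 1 GATA core, and Slc22a3 and Htr1a held 3 and 1 each. Of 32851 promoters of the same length, 93.4% held a GGAA core on either strand and 53.6% a GATA core, and 18% held as many GGAA cores as Tph2 or more. These are matches of letters in a window, with both motifs common.

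Fev and Slc6a4 were both lower in Gfp-positive cells than in the reference. Values are log2 ratios of the sorted pool over the reference on the same array, so that 0 is an equal level and -1 a level of one part in 2. Fev read -2.84, -2.82, -2.75 and -2.44 in rostral pools 1 to 4, and -2.03, -1.77, -1.94 and -1.83 in caudal pools 1 to 4. Every pool was below the reference, and the highest rostral pool was below the lowest caudal pool. Over the 8 pools the mean was -2.30 (SE 0.07, limma adjusted p = 2.51e-09), which is 4.93-fold lower, or 20.3% of the reference level.

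Slc6a4 read -1.51, -1.42, -1.84 and -2.31 in rostral pools 1 to 4, and -1.17, -0.61, -1.43 and -1.45 in caudal pools 1 to 4. All 8 pools were again below the reference, as 52.3% of tested genes were on one side of it in every pool, and here the parts overlapped, with rostral pool 2 above caudal pools 3 and 4. The mean was -1.47 (SE 0.13, limma adjusted p = 3.52e-06), 2.76-fold lower, or 36.2% of the reference level. An exact sign-flip test over the 8 ratios gave p = 0.00781 (two-sided) for each of the 2 genes, the smallest that 8 arrays allow. Across the array, 36.9% of 18602 tested genes were called lower in Gfp-positive cells and 71.4% were called in either direction, so a call in this comparison is common. The pools are bulk samples, in which fewer cells of a type and less RNA per cell cannot be told apart.

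**Figure D1:**
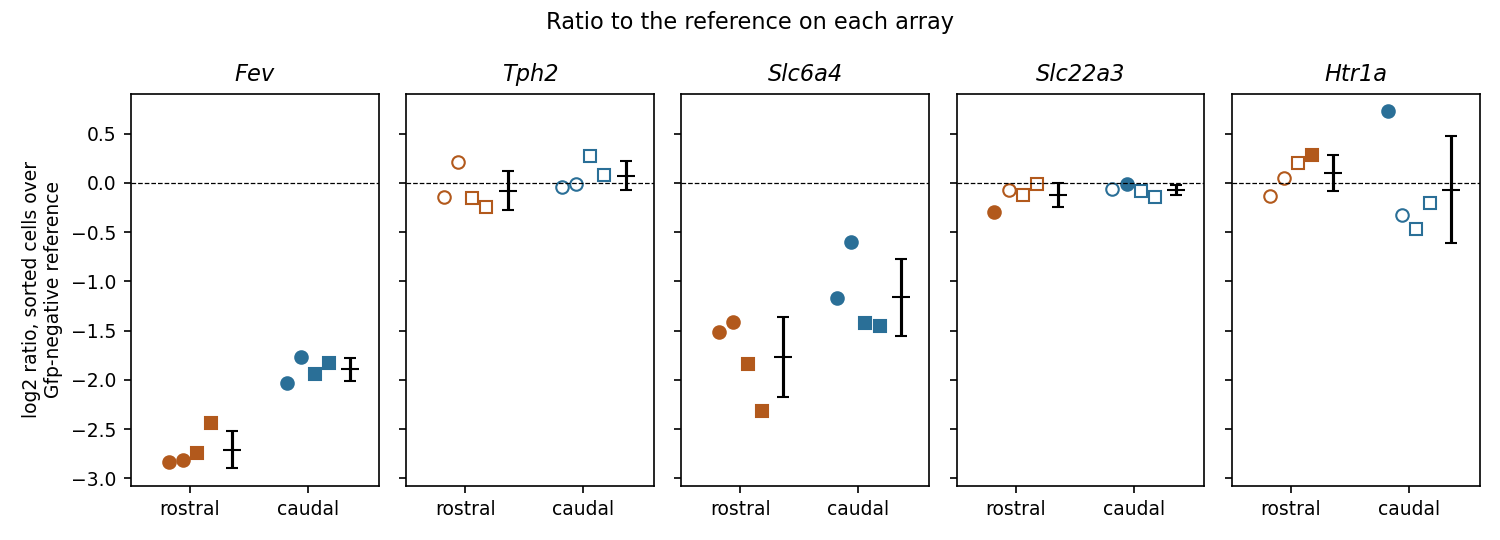
Log2 ratio of Gfp-positive pools over the Gfp-negative reference for the 5 members, one point per array, rostral left of caudal, with the mean and SD of 4 pools. Circles are slide row 1 and squares slide row 2, filled where the probe was well above background in either channel. Fev and Slc6a4 lie below 0 in all 8 pools, and the Fev pools of the 2 parts do not overlap.

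The other 3 members gave ratios near 0 from probes at background. Tph2 was well above background on 0 of 8 arrays in either channel. Its raw signal was 92 to 122 units in the sorted pools and 84 to 118 in the reference, where the 308 negative control spots of each array had medians of 83 to 85 in Cy3 and 83 to 86.5 in Cy5. The reading therefore sets no level for Tph2 in Gfp-positive cells or in the reference. Its ratios averaged -0.08 ± 0.20 in rostral pools and 0.07 ± 0.14 in caudal pools (SD, n = 4 each).

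Slc22a3 was well above background in rostral pool 1 and caudal pool 2, and in the reference on 1 of 8 arrays. Its ratios averaged -0.13 ± 0.12 in rostral pools and -0.07 ± 0.05 in caudal pools (SD, n = 4 each). All 8 were below 0, between -0.30 and -0.01, and the exact sign-flip test gave p = 0.00781 (two-sided), but the signals behind them were at background in both channels on most arrays, so no change was called. Htr1a was well above background in rostral pool 4 and caudal pool 1 and in the reference on 0 of 8 arrays. Its ratios averaged 0.10 ± 0.18 in rostral pools and -0.07 ± 0.54 in caudal pools (SD, n = 4 each), with caudal pool 1 alone at 0.73 and the other caudal pools between -0.47 and -0.21. The sign-flip test was run for all 5 members, and gave p = 0.945 for Tph2 and p = 0.938 for Htr1a (exact, two-sided).

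**Figure D2:**
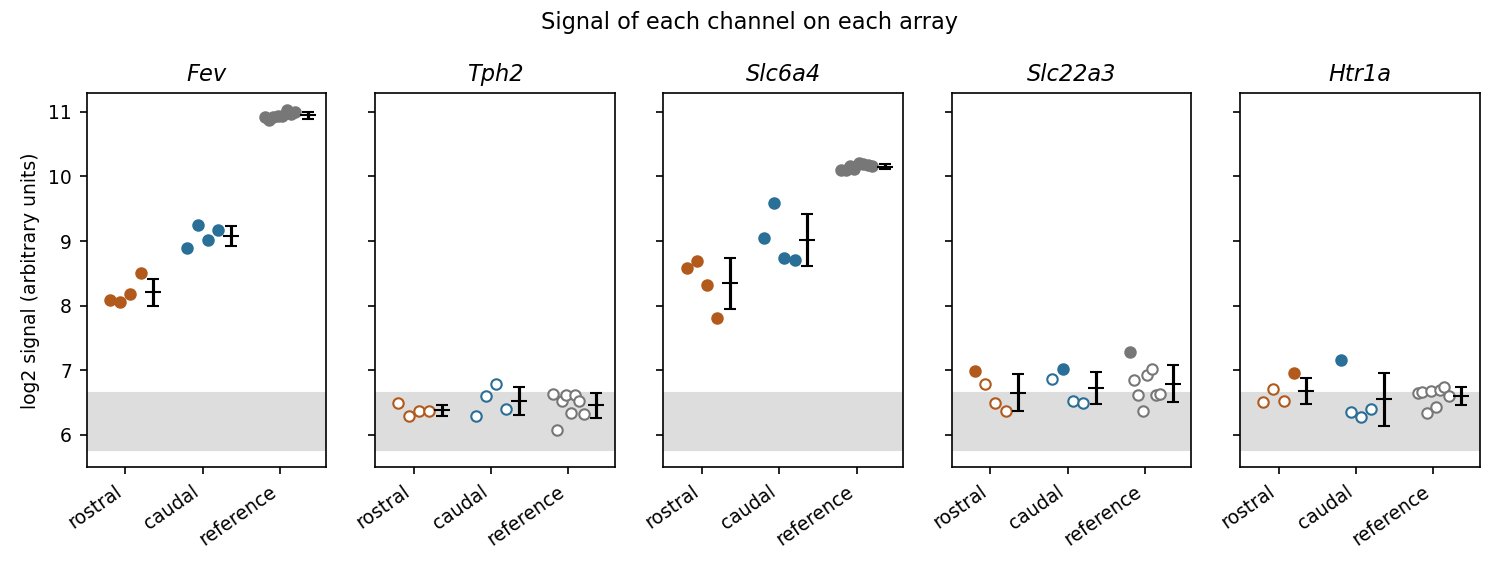
Normalised log2 signal of each member in rostral pools, caudal pools and the reference, one point per array, with the mean and SD. Filled points are well above background in that channel, and the grey band spans the lowest signals of probes well above background. Fev and Slc6a4 stand above the band in every channel, and Tph2, Slc22a3 and Htr1a lie in or just above it.

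The channels of the 2 measured members show where the ratio comes from. Fev had log2 signals of 8.09, 8.05, 8.17 and 8.51 in rostral pools and 8.90, 9.25, 9.02 and 9.16 in caudal pools, against 10.87 to 11.02 in the reference. The order of the Fev levels was thus reference, caudal, rostral from high to low, with no overlap between neighbours. Slc6a4 had 8.59, 8.69, 8.32 and 7.80 in rostral pools and 9.04, 9.58, 8.74 and 8.70 in caudal pools, against 10.10 to 10.21 in the reference. In the normalised sample channel every caudal pool was above every rostral pool for Slc6a4 too, with rostral pool 2 at 8.69 and caudal pool 4 at 8.70. That separation depends on the normalization. The raw Slc6a4 signals of these 2 pools were 450.5 and 403, and the scanner's processed signals 122.6 and 104.0, so there the parts overlapped. All normalised signals of sorted pools were below the reference. Relabelling rostral and caudal pools in the normalised sample channel gave p = 0.0286 (exact, two-sided) for Fev and for Slc6a4. The channel was taken alone after the data were seen, and the share of all genes so separated in it was not counted.

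Both transcripts thus gave signal above background in each of the 8 sorted pools. The radial glia genes Fabp7, Slc1a3, Hes5 and Sox2 did so too. Whether the Fev and Slc6a4 signal came from Gfp-positive cells or from other cells carried into the pools was not tested. Raw Fev signals were 300 to 391 units in rostral pools and 536 to 633 in caudal pools, where 95% of negative control spots were under 92 to 113 units in that channel. Raw Slc6a4 signals were 238.5 to 450.5 in rostral pools and 403 to 779.5 in caudal pools. The lowest of these, Slc6a4 in rostral pool 4, still lay above that range.

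In the comparison of rostral with caudal pools, which asks how the Pitx3-expressing population differs along the midbrain, Fev was lower in rostral pools. Fev averaged -2.71 ± 0.19 in rostral pools and -1.89 ± 0.12 in caudal pools (SD, n = 4 each), a difference of -0.82 (SE 0.14, 95% interval -1.14 to -0.50, limma adjusted p = 0.00994), or 1.76-fold lower. The 4 rostral pools lay below the 4 caudal pools without overlap, and relabelling them gave p = 0.0286, the smallest an exact two-sided test of 4 against 4 allows. Of 18099 genes tested in this comparison, 6.33% were called in either direction and 2.8% were called lower in rostral pools. In 6.06% of them all 4 caudal arrays lay above all 4 rostral arrays, and in 12.5% the parts did not overlap in one direction or the other. Within the 2 rows of the slide, each with 2 rostral and 2 caudal arrays, the difference was -0.93 in row 1 and -0.71 in row 2, with limma adjusted p of 0.21 and 0.267 on 4 arrays each. With the slide row as a block it was -0.82 (limma adjusted p = 0.0153).

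Slc6a4 averaged -1.77 ± 0.40 in rostral pools and -1.16 ± 0.39 in caudal pools (SD, n = 4 each). The difference of -0.61 (SE 0.25, 95% interval -1.17 to -0.04) had an unadjusted limma p of 0.0382 and an adjusted p of 0.225, so it did not pass the test. The exact relabelling test gave p = 0.0857 (two-sided). Leaving out rostral pool 4, the lowest, or caudal pool 2, the highest, gave -0.43 and -0.42. The interval for Slc6a4 holds the difference measured for Fev, and a difference between the 2 genes was not tested.

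Rostral pool 4 had the highest Fev ratio of its part and the lowest Slc6a4 ratio, so the 2 genes did not order the pools alike within a part. Slc6a4 ratios were ordered by slide row within each part, a difference that did not pass the test. The rostral pools averaged -1.47 in row 1 and -2.08 in row 2, and the caudal pools -0.89 and -1.44, so both row 1 pools lay above both row 2 pools in each part. The row effect was 0.58 (SE 0.18, limma adjusted p = 0.994). Between the rows limma called 0% of 18099 genes, with 749 at an unadjusted p below 0.05. For Fev the row effect was -0.12 (SE 0.14). The rows are positions on 1 slide, and they also split the pools by number, with replicates 1 and 2 in row 1 and replicates 3 and 4 in row 2.

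The reference channel differed little between the arrays of the 2 parts. Its Fev signal differed by -0.06 between rostral and caudal arrays (95% interval -0.17 to 0.04, limma adjusted p = 0.999), and in the sample channel alone the rostral minus caudal difference was -0.88 (SE 0.16, limma adjusted p = 0.0129). For Slc6a4 the reference differed by -0.06 and the sample channel alone by -0.67 (SE 0.26, limma adjusted p = 0.196). The small reference differences had the same sign as those of the sorted pools. Relabelling the reference signals gave p = 0.0571 (exact, two-sided) for Fev and for Slc6a4. In the reference channel 0.0176% of 17020 genes were called, and in the sample channel alone 6.04% of 18099.

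Each part was also below the reference when taken alone. Fev stood at -2.71 in rostral pools (limma adjusted p = 2.09e-08) and -1.89 in caudal pools (limma adjusted p = 2.26e-07), which are 15.3% and 26.9% of the reference level. Slc6a4 stood at -1.77 (limma adjusted p = 1.85e-05) and -1.16 (limma adjusted p = 0.000336), or 29.3% and 44.6%. Of 18602 genes, 31.8% were called lower than the reference in rostral pools, and 31.8% in caudal pools.

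The genes whose ratio followed Fev most closely over the 8 arrays were Tle3, Cops6 and Gpank1, each with a Pearson r of 0.98, and 175 of 18547 genes reached 0.9. For Slc6a4 they were Gm16062 (r = 0.98), Slc35b2 (0.97) and Pramel12 (0.96), and 21 genes reached 0.9. These correlations share the 8 arrays, their reference and the split between parts, and are given as a description.

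Transcription factors of the serotonergic lineage split into 2 sets of opposite direction. Of 9 listed and tested, 4 were higher in Gfp-positive cells and 5 were lower. The median was -0.22, against -0.01 over all 18602 genes, of which 34.5% were called higher and 36.9% lower. The 4 higher genes also belong to midbrain dopaminergic neurons: Foxa2, a floor plate forkhead factor, stood at 3.70, the engrailed genes En1 and En2 at 2.09 and 1.89, and the LIM homeobox gene Lmx1b at 0.63, with a second probe at 0.19. Among the lower genes, Gata3 and Gata2, which act in serotonergic and also in midbrain GABAergic neurons, stood at -4.21 and -2.86. Nkx2-2, a homeobox gene active in ventral hindbrain progenitors but not in them alone, stood at -2.39 (second probe -3.39). Insm1, a zinc finger gene of newborn neurons, stood at -0.22, and with the scanner's processed signals at -0.10, where the limma adjusted p was 0.17.

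Between parts, 1 of these 9 genes was higher in rostral pools, 2 were lower and 6 did not pass, with a median of -0.24, against 0.01 over all 18099 genes, 3.53% of them called higher and 2.8% lower. Nkx2-2 read -1.73 to -1.95 in rostral pools and -2.73 to -3.29 in caudal pools, a difference of 1.05 (limma adjusted p = 0.00365), opposite in direction to Fev. En2 read 1.05 to 1.64 in rostral pools and 2.23 to 2.41 in caudal pools, a difference of -0.90 (limma adjusted p = 0.00281). En1 differed by -0.78 (limma adjusted p = 0.0142). Gata3 read -5.14 to -4.42 in rostral pools and -4.14 to -2.67 in caudal pools. These do not overlap, as in 12.5% of all genes tested between parts, but the Gata3 difference of -1.08 missed the threshold (limma adjusted p = 0.0758). Gata2 differed by 0.00 (limma adjusted p = 0.998).

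**Figure D3:**
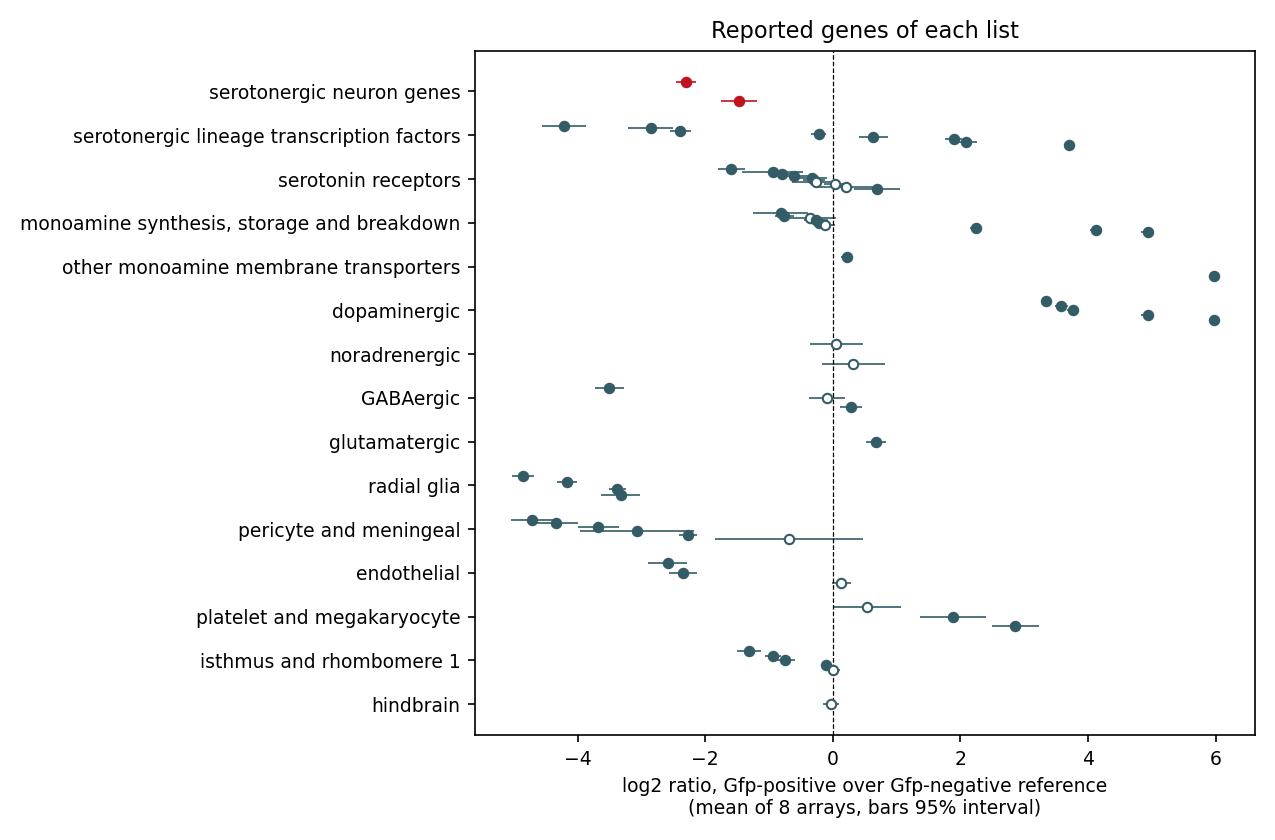
Log2 ratio of Gfp-positive cells over the reference for each reported gene of each list, as the mean of 8 arrays with its 95% interval. Filled points passed the test (limma adjusted p below 0.05), open points did not, and red marks Fev and Slc6a4. Dopaminergic genes lie at 3.34 and above, and radial glia genes at -3.33 and below.

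Genes of monoamine synthesis, storage and breakdown, which dopaminergic and serotonergic neurons largely share, were called in both directions, at shares near those of all genes. Of 9 tested, 3 were higher in Gfp-positive cells, 4 were lower and 2 did not pass, with a median of -0.22, beside 34.5% higher and 36.9% lower over all tested genes and their median of -0.01. Slc18a2, the vesicular monoamine transporter, stood at 4.94, Gch1, the first enzyme of tetrahydrobiopterin synthesis, at 4.12, and Ddc, the aromatic amino acid decarboxylase, at 2.24, with a second probe at 4.31. Spr and Qdpr, of cofactor synthesis and recycling, stood at -0.76 and -0.22, and the second Qdpr probe at 0.12. The monoamine oxidase genes Maob and Maoa stood at -0.82 and -0.26. The Maoa call was lost with the processed signals (limma adjusted p = 0.0789) and without caudal pool 3 or caudal pool 4. Tph1, the tryptophan hydroxylase of the periphery and pineal gland, stood at -0.35 (limma adjusted p = 0.107).

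Rostral against caudal, 2 of these 9 genes were lower in rostral pools and the other 7 did not pass, with a median of 0.04. Over all 18099 genes 2.8% were lower and 3.53% higher, with a median of 0.01. Slc18a2 differed by -0.56 (limma adjusted p = 0.00778) and Gch1 by -0.41 (limma adjusted p = 0.0226). The Gch1 call was lost in 7 of the alternative settings, 5 of them with 1 pool left out, although its value stayed between -0.74 and -0.34. Ddc differed by 0.20 (limma adjusted p = 0.209) and passed without rostral pool 4. Its direction reversed with the mean over its probes and with the sample channel alone. The second Ddc probe averaged 4.20 in rostral pools and 4.42 in caudal pools.

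Of 5 monoamine transporters of the cell membrane listed beside Slc6a4 and Slc22a3, 3 were tested and all 3 were higher in Gfp-positive cells. Over all tested genes 34.5% were higher. Not all of the 3 are reported here by name. Slc6a3, the dopamine transporter, stood at 5.98, while Slc29a4, the plasma membrane monoamine transporter, stood at 0.22 (limma adjusted p = 0.000617). Slc22a2 and Slc6a2, the noradrenaline transporter, were well above background in the sorted cells on 3 and 2 of 8 arrays and in the reference on 0. Slc6a3 and Slc29a4 did not pass in limma between parts, where Slc6a3 differed by 0.24 and Slc29a4 by -0.20 (unadjusted p = 0.00806 and 0.0294, adjusted p = 0.09 and 0.195). With the sample channel alone Slc6a3 differed by 0.67 and passed, as did 6.04% of genes in that setting. The Slc6a3 reference signal was 11.02 to 11.64 on rostral arrays and 10.85 to 11.05 on caudal arrays, so its ratio also holds a difference in the reference.

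Serotonin receptors other than Htr1a included genes lower than the reference and genes at background. Of 13 listed, 10 were tested: 1 was higher in Gfp-positive cells, 6 were lower and 3 did not pass, with a median of -0.31, beside 34.5% higher and 36.9% lower over all tested genes. Htr2c, a Gq-coupled receptor, stood at -1.59 (limma adjusted p = 2.58e-07) and Htr3a, a subunit of the serotonin-gated ion channel, at -0.80 (limma adjusted p = 3.37e-06). Htr7, a Gs-coupled receptor, stood at -0.62 (limma adjusted p = 0.00178). Htr4, also Gs-coupled, stood at -0.94 (limma adjusted p = 0.00285). The 1 higher receptor, Htr5a, was well above background in sorted pools on 7 of 8 arrays and in the reference on 0. It was at least 1.61-fold higher in Gfp-positive cells, but passed the filter through the sorted cells alone, so no p is given for it. It lies outside the 4 of smallest p and was chosen after its value was seen, as was the naming of Htr1b and Htr1f, which were at background on 8 of 8 arrays in both channels.

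Among 9 receptors tested between parts, 1 was higher in rostral pools and 8 did not pass, with a median of 0.09. Htr2c read -1.46 to -0.70 in rostral pools and -2.26 to -2.01 in caudal pools, a difference of 1.05 (limma adjusted p = 0.0121). The parts did not overlap, as in 12.5% of all genes tested between parts. The other 2 Htr2c probes were at background on all 8 arrays. Htr5b differed by 1.11 with a limma adjusted p of 0.141.

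**Figure D4:**
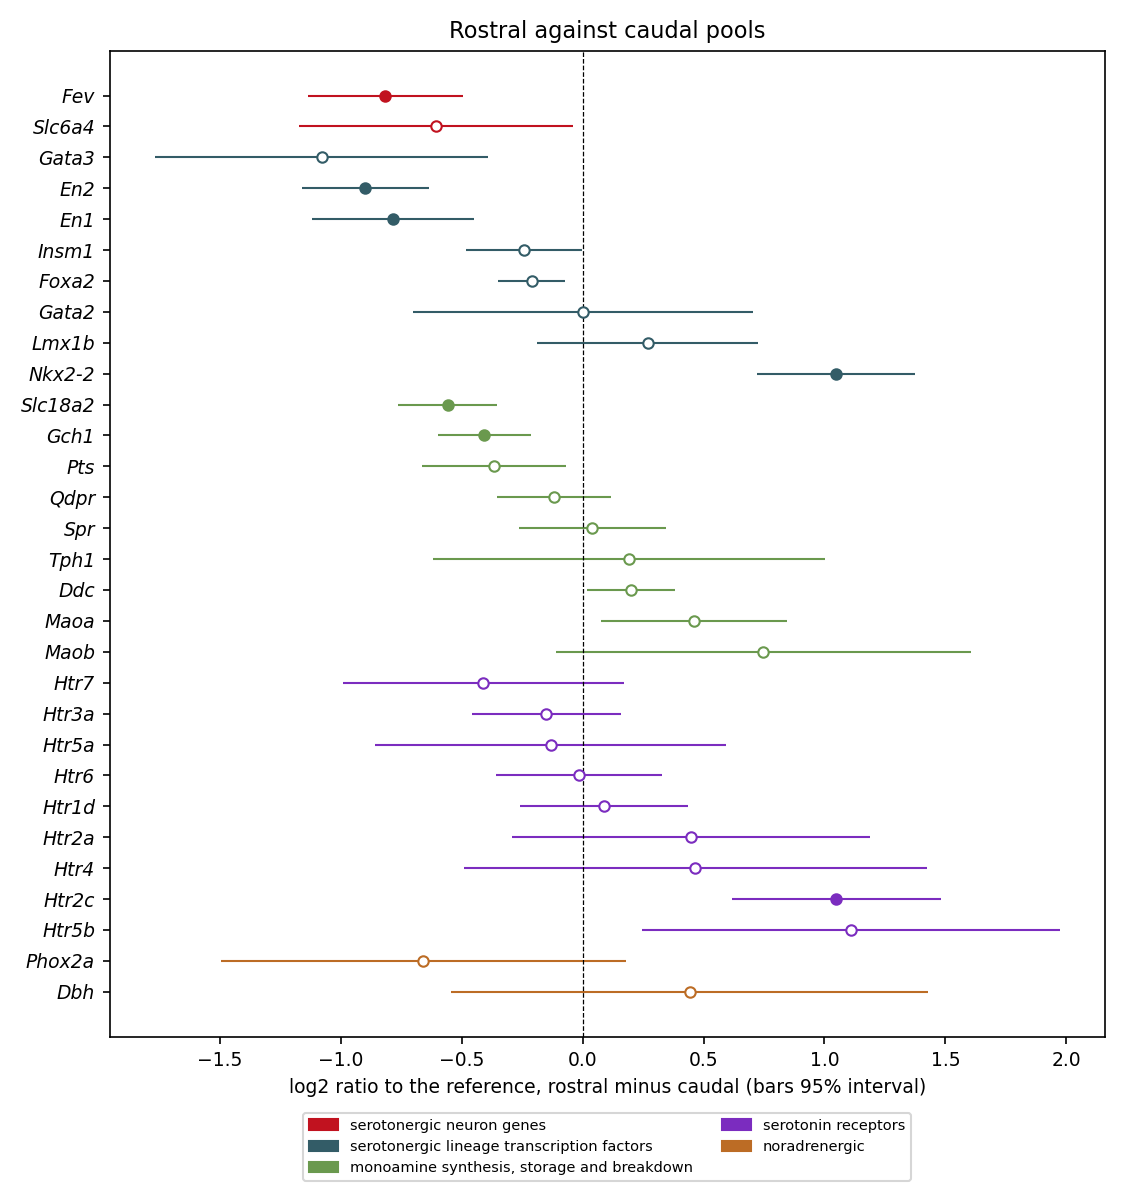
Difference in log2 ratio, rostral minus caudal, for Fev, Slc6a4 and the reported genes of 4 lists, with 95% intervals. Filled points passed the test (limma adjusted p below 0.05) and open points did not. Fev, En1 and En2 lie left of 0, and Nkx2-2 and Htr2c lie right of it.

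Markers of other cells that a sort or a dissection could bring in were read beside these values. The 5 dopaminergic genes were all higher in Gfp-positive cells (3.34 to 5.98), where 34.5% of all tested genes were higher. They include Slc18a2 and Slc6a3 described above. They also include Pitx3, whose locus the sort was based on, so its value is no check of the sort. The 4 radial glia genes were all lower (-4.86 to -3.33), as were 5 of 6 pericyte and meningeal genes and 2 of 3 endothelial genes. Over all tested genes 36.9% were lower. The 3 GABAergic genes split, with the GABA-synthesising enzyme gene Gad1 lower at -3.50, Gad2, the other such enzyme, at -0.09 without passing, and the vesicular GABA transporter gene Slc32a1 higher at 0.28, where its second probe read -0.28. Slc17a6, a vesicular glutamate transporter, stood at 0.67. The noradrenergic genes Dbh and Phox2a, at 0.32 and 0.06, did not pass. Platelet genes went the other way from the glial and vascular ones, with 2 of 3 tested higher in Gfp-positive cells. Pf4 stood at 2.86 and Ppbp at 1.88 (limma adjusted p = 1.8e-07 and 4.43e-05), and Gp9, at 0.53, did not pass.

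Markers of position bear on serotonergic neurons because these lie behind the isthmus. Of 5 isthmus and rhombomere 1 genes, 4 were lower in Gfp-positive cells and 1 did not pass, with a median of -0.75, where 36.9% of all tested genes were lower. Of the 5 Hox genes of the hindbrain, Hoxb1 and Hoxb3 were at background on 8 of 8 arrays in both channels, Hoxa2 and Hoxb2 were above it in sorted cells on 1 array each, and only Hoxa3, at -0.03, was tested. Rhombomere 1 itself lacks Hox expression, so these genes do not mark it.

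Some of these markers also differed between parts, higher in rostral pools where Fev was lower. Gbx2, a homeobox gene listed here for the isthmus and rhombomere 1, was above background in sorted cells on 4 of 4 rostral and 0 of 4 caudal arrays. Its rostral signal was at least 2.88-fold higher, and whether it marks hindbrain cells in these pools was not tested. Gbx2 passed the filter through the rostral pools alone, so no p is given for it. The platelet genes Ppbp and Pf4 were higher in rostral pools by 2.48 and 1.54 (limma adjusted p = 0.0125 and 0.0235, the Pf4 call being lost in 5 settings that each left out 1 pool), and platelets also hold the serotonin transporter, whose gene Slc6a4 was lower there by 0.61 without passing the test. The part of these cells in the Fev and Slc6a4 results was not tested.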

How the data were processed

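Sorted pools, 4 rostral and 4 caudal by their labels, were hybridised in Cy3 against Gfp-negative reference RNA in Cy5 on 8 arrays of 1 slide. Per the file headers, the authors extracted the scans with Agilent software (Feature Extraction 10.7.3.1). Its deposited files hold, per spot and channel, the median intensity of spot and local background without normalization, a processed intensity, and 0 or 1 flags (well above background, saturated, outlier). The submitters' processing notes also list RMA, without saying for what. The series-wide table served for probe annotation alone, since the names of its 8 value columns fit no sample.

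Analysis used R 4.3.3 with limma (version 3.58.1) and data.table (version 1.17.8). Background was corrected by normexp (offset 50) on the median signals, since the files hold no mean signals as the plan had assumed. Loess within arrays gave control and outlier spots weight 0, and Aquantile was added for single-channel values. Outlier spots were left out and spots of a probe averaged. Of 55681 probes, 27509 took their name by accession from RefSeq (GRCm38.p6), 4124 from the deposited symbol, and the rest were unnamed. The brightest probe stood for a gene. Spots well above background were 63.3% to 71.1% in Cy3 and 55.1% to 64.4% in Cy5, and 8 arrays limit the precision.

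A gene was tested if well above background on at least 4 of 8 arrays: in either channel against the reference, in Cy3 between parts, in Cy5 for the reference channel. limma (lmFit, eBayes with an intensity trend) gave two-sided p-values on the log2 ratios computed from the deposited intensities, adjusted by Benjamini-Hochberg over all genes tested, with calls at 0.05. The reference counts as 1 control sample, so its own spread is left out. A gene at background throughout one channel has a bound, "at least N-fold": the mean of the brighter channel over, per array, the higher of the dim signal and the lowest signal of probes well above background, open to dye bias. The fit was tested on simulated data. Alternatives were the background correction, offset, Aquantile, filter, probe choice, trend, replicate and slide row blocks, single slide rows, leaving out each array, and, chosen after seeing the data, the sample channel alone.

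The members and lists were chosen with earlier results of these data known. By rule the text names all members, genes of lists of up to 10, the 4 of smallest p of longer lists, and for each measured member the 3 genes of most similar ratio. List counts and medians run over whole lists, some genes of which are not reported here by name.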

Additional observations from a re-analysis of the deposited data

Results flagged for a closer look

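The Fev ratio to the reference differed between the parts, at -0.82 for rostral minus caudal pools (limma adjusted p = 0.00994), with both parts below the reference.

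In the sample channel, the Htr1a signal of caudal pool 1 was 7.16 on the log2 scale, apart from the other 3 caudal pools, and it was the only caudal array on which the probe was well above background. Of 25 groups of values checked for a sample far from the others, 1 was marked, and chance marks about 5% of such groups.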

How the results depend on the processing

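Fev and Slc6a4 kept their direction and their call against the reference under all 13 alternatives and without each array, between -2.43 and -2.24 for Fev and between -1.76 and -1.18 for Slc6a4. Rostral minus caudal, Fev ranged from -1.02 to -0.71 and lost its call only within slide row 1 (-0.93) and within slide row 2 (-0.71), which have 4 arrays each. Without each array in turn it ranged from -0.91 to -0.77 (limma adjusted p 0.0118 to 0.0346). Slc6a4 ranged from -0.81 to -0.58 and passed under none of these settings (limma adjusted p 0.096 to 0.456), nor without any array (-0.72 to -0.42). With the scanner's processed signals the reference channel differences turned to 0.13 for Fev and 0.10 for Slc6a4, on a scale where the median of all genes was 0.156.

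Counts of called genes moved more. Testing every probe, which enters more features, gave 25770 calls against the reference in place of 13287, 21286 for rostral pools in place of 11373 and 20549 for caudal pools in place of 11031, where slide row 1 alone gave 7156. Between parts, the 1145 calls became 0 within slide row 1 (limma, 2384 at an unadjusted p below 0.05), 185 within slide row 2, and 718 to 1013 without each array, with 718 without caudal pool 1 and 752 without caudal pool 4. In the reference channel, the 3 calls became 44 with processed signals, 9 without Aquantile, 6 for every probe, 1 without the trend, 9 within slide row 1, 0 within slide row 2 (limma, 365 at an unadjusted p below 0.05), and 2 to 7 without each array, 7 of them without rostral pool 4. Apart from the probes and arrays entered, the cause was not tested.

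Rostral and caudal pools share replicate numbers. Deviations of same-numbered pools from their group means correlated at 0.02, -0.01, -0.07 and -0.02, and not every pool correlated best with its own number, so the numbers were not taken to pair the pools. With the replicate block, 724 genes were called between parts, and Fev stood at -0.82 (limma adjusted p = 0.039) and Slc6a4 at -0.61 (limma adjusted p = 0.114). The block also ended the En1 call.

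Signal over background limits the set: no statement on Tph2, Slc22a3 or Htr1a can be made in either direction. One probe per member and 1 dye orientation leave probe and dye effects within each ratio to the reference.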

Other observations

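The 3 genes called in the reference channel between arrays were Cck, a neuropeptide gene, at -0.80, Pitx1, a homeobox gene, at -0.92, and Fzd10, a Wnt receptor gene, at -0.30, each lower on rostral arrays (limma, adjusted p below 0.05). They were chosen after their values were seen. None is a serotonergic member, and for these 3 genes a ratio between parts also holds a difference in the reference.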
